A study of Mus musculus with 2 samples.

Results

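The genes described here are 9 members of the BCL2 family, chosen as a fixed list of symbols present in both count matrices: the pro-survival genes Bcl2, Bcl2l1 (BCL-XL), Mcl1, Bcl2a1b and Bcl2a1d, and the pro-death genes Bak1, Bcl2l11 (BIM), Bid and Bad. They are 9 of 27998 annotated genes, and all 9 were found. Bax, Bbc3 and Pmaip1 were left out of the list by its rule. RNA was measured by droplet single-cell sequencing in LSK cells (Lin-, Sca-1+ and c-Kit+), the bone marrow fraction that holds hematopoietic stem cells and multipotent progenitors, from mice 3 months old. One library was made from Trmt6 WT mice, labelled Trmt6fl/fl, and the other from Trmt6 cKO mice, labelled Trmt6fl/fl, MX1-cre, so each genotype is a single library. TRMT6 works with TRMT61A to methylate an adenosine of transfer RNA. The study describes the controls as Trmt6+/+ mice that also carry Mx1-Cre, and all mice as given pIpC, an inducer of interferon that switches on the Mx1 promoter; the labels show neither for WT. Mx1-Cre is active in blood cells in general and in other interferon-responsive cells, and how many mice went into a library is not given in the sources used here.

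BCL2 family proteins decide whether the outer membrane of the mitochondrion stays closed. BAX and BAK1 are the effectors that open it, the pro-survival members bind and hold them back, and the BH3-only members BIM, BID and BAD bind the pro-survival members through a short helix called the BH3 domain. In blood-forming cells MCL1 is required by stem cells and most progenitors, BCL2 supports lymphocytes, BCL-XL supports erythroid cells and platelets, and the BCL2A1 proteins are best known from granulocytes, mast cells and activated lymphocytes.

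The BH3 domain is the part that the family shares and through which its members bind each other, so its coding bases are shown for the genes in which it was found. They were read from GENCODE M21 transcripts (GRCm38), taking for each gene the longest complete coding sequence, and are printed 5′ to 3′. Capitals mark the codons of the conserved leucine and of the glycine and aspartate that follow it, with serine in place of glycine in Bad.
Bcl2 (chr1:106712578-106712604, minus strand, exon 1 of 2): accCTCcgccgggctGGGGATgacttc
Bcl2l1 (chr2:152829700-152829726, minus strand, exon 2 of 3): gcgCTGagagaggcaGGCGATgagttt
Mcl1 (chr3:95659433-95659459, plus strand, exon 1 of 3): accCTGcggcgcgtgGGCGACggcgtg
Bcl2l11 (chr2:128147147-128147173, plus strand, exon 3 of 4): gagCTGcggcggatcGGAGACgagttc
Bak1 (chr17:27022534-27022560, minus strand, exon 4 of 6): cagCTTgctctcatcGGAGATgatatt
Bid (chr6:120897292-120897318, minus strand, exon 4 of 6): catCTCgcccaaataGGCGATgagatg
Bad (chr19:6950789-6950815, plus strand, exon 3 of 4): gagCTCcgaaggatgAGCGATgagttt
Each stretch lies within 1 coding exon. The search required glycine, alanine or serine before the aspartate. In Bcl2a1b and Bcl2a1d no stretch of the coding sequence matched, and a BH3 domain with another residue there would have been missed.

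Bcl2a1b and Bcl2a1d are near-identical copies, which limits what a count of either one means. Their coding sequences share 513 of 519 bases, and all 147 bases after the stop codon of Bcl2a1b are also present in Bcl2a1d. The longest run without a difference is 217 bases. The kit counts fragments from the 3-prime end of messages, and Cell Ranger counts reads that map to 1 gene only, so UMIs of the copies are uncertain, both in number and in which copy they belong to.

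The region around the start site is shown for these copies because both were higher in cKO and because each holds an 8-base match to the C/EBP-ATF composite element, TGATGCAA, in capitals here. The element is known as a binding site for ATF4 paired with C/EBP proteins. The windows run from 250 bases before to 50 bases after the annotated start (RefSeq, GRCm38.p6).
Bcl2a1b (chr9:89199023-89199322, plus strand): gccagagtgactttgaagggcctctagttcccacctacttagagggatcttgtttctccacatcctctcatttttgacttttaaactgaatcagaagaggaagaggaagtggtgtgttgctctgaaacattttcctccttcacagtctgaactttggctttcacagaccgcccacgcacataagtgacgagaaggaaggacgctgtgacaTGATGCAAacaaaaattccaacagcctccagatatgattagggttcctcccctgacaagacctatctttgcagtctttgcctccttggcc
Bcl2a1d (chr9:88731801-88732100, minus strand): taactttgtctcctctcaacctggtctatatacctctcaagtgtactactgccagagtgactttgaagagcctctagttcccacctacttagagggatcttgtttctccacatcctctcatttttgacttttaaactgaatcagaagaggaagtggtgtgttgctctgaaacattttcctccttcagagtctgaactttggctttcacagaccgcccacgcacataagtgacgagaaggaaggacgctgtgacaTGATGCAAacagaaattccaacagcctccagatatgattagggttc
The match begins 40 bases before the annotated start of Bcl2a1b and 4 bases after that of Bcl2a1d, within the same surrounding sequence. In GENCODE M21 Bcl2a1b starts at chr9:89199209 and Bcl2a1d at chr9:88731914, so by that annotation the match lies inside both genes. Of all 32851 start-site windows 0.895% hold it on either strand. All 9 genes had a window, 13 in all, and the other 11 did not hold these letters. In the same 13 windows a kappaB site was found in 1 of the Bcl2l1 windows (4.51% of all windows), CCAAT in 3 windows of Bcl2l11 and Bad (37.4% of all), and the CArG box (1.63%), the cyclic AMP element TGACGTCA (1.79%) and TATAAA (13.6%) in none. None of these matches overlapped the composite element. A match is a run of letters and says nothing of binding in these cells.

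The study's limits on genes and mitochondrial UMIs, and the dropping of marked doublets, left 8147 cells of WT (41537402 UMIs) and 8482 of cKO (87125475 UMIs). The median cell held 4126 UMIs in WT and 10039.5 in cKO, so shares of cells are given after thinning every cell to 2000 UMIs, which 7942 WT and 8377 cKO cells allowed. The libraries had 24 barcodes in common, 18 among kept cells. The library labelled cKO was at 50.2 CPM (UMIs per 1000000) of Trmt6 against 63.3 in WT, and a count of 3-prime ends does not show whether the deleted exons are present. Neutrophil marker genes summed to 5627 CPM in WT and 19.2 in cKO, 20 immediate early genes to 6319 and 1418, and 12 genes of the integrated stress response to 359 and 1494. With 1 library a genotype there is no test between genotypes, and every interval below is a 95% interval that covers counting error only.

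Over all kept cells Bcl2 and Mcl1 were lower in cKO, Bcl2l1 and Bak1 were higher, Bid and Bad were nearly level, and the Bcl2a1 copies were higher from very low counts. Bcl2 stood at 63.0 CPM (60.6 to 65.4) in WT against 26.8 CPM (25.7 to 27.9) in cKO, and its log2 ratio of cKO over WT was -1.24 (-1.32 to -1.15). Mcl1 stood at 74.5 CPM (71.9 to 77.2) and 43.1 CPM (41.7 to 44.5), a log2 ratio of -0.79 (-0.86 to -0.72), which became -0.14 with the same mix of immediate early gene levels in both libraries. Bcl2l1 went the other way, with 10.3 CPM (9.37 to 11.4) in WT against 16.5 CPM (15.7 to 17.4) in cKO and a log2 ratio of 0.67 (0.52 to 0.83). For these genes the intervals of the levels did not overlap between the libraries.

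Among the pro-death genes, the effector Bak1 was at 44.0 CPM in WT against 56.0 CPM in cKO, log2 ratio 0.35 (0.27 to 0.42). Bid, which is cut by caspase-8 and carries death receptor signals to the mitochondrion, was at 54.0 and 54.5 CPM, a log2 ratio of 0.01 (-0.06 to 0.09). Bad, a sensor held inactive by growth factor signalling, was at 60.0 and 63.5 CPM (0.08, 0.01 to 0.15). Bcl2l11, the sensor of cytokine withdrawal, was at 6.33 and 4.74 CPM (-0.42, -0.64 to -0.19). Its ratio turned to 0.12 with the same mix of immediate early gene levels in both libraries. None of these 4 genes reached a 2-fold difference.

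All genes but the Bcl2a1 copies, 7 in number, reached 5 CPM in a library, the level from which genes were counted. Of those 7, 1 was at least 2-fold lower in cKO (Bcl2) and 0 were at least 2-fold higher, against 5.25% of 9155 genes lower and 2.88% higher. Bcl2 was at -0.89 when each cell was scaled before averaging and at -0.97 with the same mix of immediate early gene levels, both under 2-fold. The Bcl2a1 copies lay below 5 CPM and were past 2-fold higher. The median log2 ratio of the 9 genes, the Bcl2a1 copies included, was 0.08, and that of all 9155 genes was -0.07. Without the copies the middle value was that of Bid, 0.01. The genes went both ways, from -1.24 (Bcl2) to 2.10 (Bcl2a1d), and the Bcl2a1 copies would not have entered the count of all genes.

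**Figure D1:**
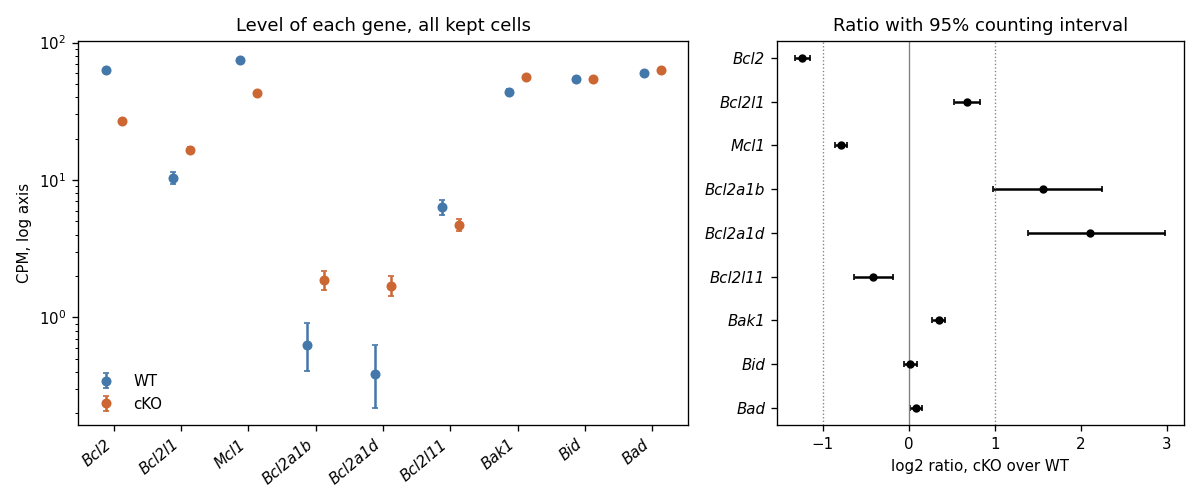
Left, level of each gene in WT and cKO in CPM on a log axis, with 95% Poisson intervals; right, log2 ratio of cKO over WT with its 95% counting interval, dotted lines at 2-fold. Bcl2 (-1.24) and Mcl1 (-0.79) lie to the left, Bid (0.01) and Bad (0.08) at the centre line, and Bcl2a1b (1.56) and Bcl2a1d (2.10) to the right with the widest intervals.

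Cells were then assigned to lineages by how many markers of that lineage had a UMI in the thinned cell. The gates held 271 WT and 560 cKO cells for HSC, 471 and 145 for LMPP (lymphoid-primed progenitors), 1287 and 63 for GMP (granulocyte-monocyte progenitors), 168 and 22 for megakaryocyte and 133 and 58 for monocyte/DC. A further 43 WT cells met the neutrophil gate, 20 the erythroid and 29 the mast/basophil gate, and in cKO 22 met the T/NK and 49 the B gate. Gates with fewer than 20 cells in a library are not described there, and 5310 WT and 7383 cKO cells met no gate. In every gate and library its own markers outnumbered those of any other lineage among the 10 leading genes. Gating on these markers largely fixed this in advance, so it is no check of the gates. The gates are loose at their edge: 200 of 271 WT and 417 of 560 cKO cells of the HSC gate had exactly the 3 markers required. Cell numbers are not compared, since the gate genes themselves differ between the libraries. The median number of GMP markers detected was 3 in WT and 1 in cKO in the monocyte/DC gate. It was 2 and 1 in the HSC, LMPP and megakaryocyte gates.

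Bcl2 was lower in cKO in most gates but not in LMPP-gated cells. In the HSC gate it was at 40.2 CPM (28.2 to 55.7) in WT against 22.7 CPM (18.3 to 27.8) in cKO, log2 ratio -0.84 (-1.40 to -0.23). In LMPP-gated cells it was at 85.1 CPM (72.8 to 98.9) and 82.3 CPM (67.2 to 99.7), and the interval of the log2 ratio ran from -0.42 to 0.31 around -0.05. GMP-gated cells gave 61.9 and 42.4 CPM (-0.53, -1.03 to -0.10). Megakaryocyte-gated cells gave 69.4 and 15.6 CPM, a log2 ratio of -2.00 (-4.08 to -0.72) that rests on 4 UMIs in cKO. Monocyte/DC-gated cells gave 118 and 47.5 CPM (-1.28, -2.11 to -0.59). The WT cells of that gate had a median of 3 GMP markers detected against 1 in cKO, and its own markers summed to 9074 and 22903 CPM. Ungated cells gave 61.2 and 24.9 CPM (-1.30, -1.40 to -1.20). The LMPP and GMP intervals did not reach the -1.30 of ungated cells and that of HSC did, but the difference between gates was not tested. The gate definition matters here, as the LMPP value moved to -0.73 when gates were set on all UMIs of a cell, and the HSC value to -0.18 with 1 marker more required and to -1.72 with cells thinned to 1000 UMIs. Split by immediate early UMIs, HSC-gated cells gave Bcl2 ratios of -0.43 (-1.40 to 0.90) at 10 or fewer and -0.28 at 11 or more, and both intervals spanned 0. GMP-gated cells with 10 or fewer stayed at -0.52 (-1.02 to -0.08).

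The highest Bcl2 level of any gate was in cKO T/NK-gated cells, at 442 CPM (298 to 631), from 30 UMIs in 22 cells. The lowest in that library was in B-gated cells, at 5.76 CPM (0.698 to 20.8). In the cKO order T/NK, LMPP, monocyte/DC, GMP, ungated, HSC, megakaryocyte, B, neighbours were apart beyond their intervals at 2 of 7 steps, T/NK over LMPP and GMP over ungated. In WT the order ran monocyte/DC, LMPP, megakaryocyte, GMP, ungated, HSC, mast/basophil, erythroid, neutrophil, with 1 of 8 steps apart, ungated over HSC. Neutrophil-gated WT cells, at 13.6 CPM (3.71 to 34.8), stood at the bottom. The T/NK and B levels have no WT counterpart, as only 3 and 5 WT cells met those gates. All 3 of these WT T/NK-gated cells held Bcl2, with 10 UMIs between them.

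Mcl1 was lower in cKO in the HSC, LMPP, GMP and megakaryocyte gates, with the largest well-counted difference in the HSC gate. HSC-gated cells held 131 CPM (108 to 157) in WT against 46.8 CPM (40.4 to 54.0) in cKO, log2 ratio -1.48 (-1.82 to -1.14). LMPP-gated cells held 86.1 and 50.6 CPM (-0.76, -1.20 to -0.34), and GMP-gated cells 55.6 and 29.6 CPM (-0.89, -1.49 to -0.38). In megakaryocyte-gated cells the levels were 74.2 and 19.5 CPM, with 5 UMIs in cKO (-1.81, -3.60 to -0.63). In cells with 10 or fewer immediate early UMIs the HSC interval stayed below 0 and those of LMPP (-0.18, -0.77 to 0.44) and GMP (-0.40, -1.02 to 0.12) spanned 0. Monocyte/DC-gated cells held 67.5 and 72.5 CPM, and their interval of -0.60 to 0.78 spanned 0. In WT the HSC gate was thus at the top of the Mcl1 order, clear of LMPP, while neighbours in the order overlapped at every step in both libraries.

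Bcl2l1 had its highest levels in cKO in B-gated cells, at 49.0 CPM (28.5 to 78.4), and megakaryocyte-gated cells, at 42.8 CPM (21.4 to 76.6). Megakaryocyte-gated WT cells, at 21.9 CPM (13.0 to 34.6), were also first in their library. By point value, B-gated cells thus held the most Bcl2l1 and the least Bcl2 of the cKO gates, though neighbours in the Bcl2l1 order overlapped at all 7 steps. Between the libraries the log2 ratio of Bcl2l1 was 0.32 in the HSC gate, 0.87 in LMPP, 0.54 in GMP and 0.99 in megakaryocyte-gated cells, and each of these intervals spanned 0. The LMPP value turned to -0.83 with cells thinned to 1000 UMIs and to -0.05 with gates set on all UMIs of a cell. In ungated cells, with 260 and 1295 UMIs, the log2 ratio of Bcl2l1 was 0.63 (0.44 to 0.83).

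Bid and Bad, level over all cells, were not level in every gate. LMPP-gated cells held 50.1 CPM (40.7 to 60.9) of Bid in WT and 94.1 CPM (78.0 to 113) in cKO, log2 ratio 0.91 (0.51 to 1.31). GMP-gated cells held 60.6 and 79.9 CPM of Bid (0.41, 0.05 to 0.74), while the HSC gate was at 45.8 and 43.4 CPM (-0.09, -0.58 to 0.45). Bad went from 58.6 CPM in WT to 41.1 CPM in cKO in LMPP-gated cells (-0.50, -1.01 to -0.03) and from 80.7 to 45.0 CPM in monocyte/DC-gated cells (-0.81, -1.68 to -0.08). It was at 51.1 and 97.3 CPM in megakaryocyte-gated cells (0.94, 0.15 to 1.68). The LMPP value of Bad moved to -0.10 with gates set on all UMIs of a cell and to -0.15 with cells thinned to 1000 UMIs. By point value, LMPP-gated cells were thus at the top of the cKO gates for Bid and at the bottom for Bad.

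Bak1 was at 42.5 CPM in WT against 51.3 CPM in cKO in the HSC gate (0.26, -0.23 to 0.81), and at 51.3 and 67.1 CPM in GMP-gated cells (0.40, 0.00 to 0.75). Its largest difference was in megakaryocyte-gated cells, at 29.2 and 89.6 CPM (1.62, 0.73 to 2.50). That cKO gate holds 22 cells, 17 of them with exactly the 3 markers required, and megakaryocyte markers summed to 1273 CPM there against 5319 in WT. Bcl2l11 was sparse in every gate, with 4 and 9 UMIs in the HSC gate, and had no interval clear of 0 except in ungated cells, at 6.33 and 4.68 CPM (-0.44, -0.71 to -0.16).

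Counted in each gate by the rule used for all genes, a level of at least 5 CPM in either library, the HSC gate had 6 of the 9 genes, LMPP 7 and GMP 8. In the HSC gate 1 of 6 was at least 2-fold lower (Mcl1) and 0 were 2-fold higher, against 10.2% and 3.83% of 9634 genes. In LMPP-gated cells 0 of 7 passed 2-fold, where 9.90% of 9238 genes were lower and 4.82% higher. In GMP-gated cells 0 of 8 were lower and 1 was higher, where 6.62% of 8825 genes were lower and 3.90% higher. That 1 was Bcl2a1b, on 3 and 9 UMIs, which reached 5 CPM in cKO only and so had to count as higher. The median log2 ratio of the genes counted was 0.09, 0.17 and 0.22 in the 3 gates, and that of all genes -0.12, -0.08 and -0.01. The other members lay under 5 CPM in both libraries. Bax, the other effector, was at 120 CPM in WT against 222 CPM in cKO in the HSC gate (0.88, 0.60 to 1.19). The Bak1 interval there overlapped that of Bax, and the difference between these genes was not tested.

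**Figure D2:**
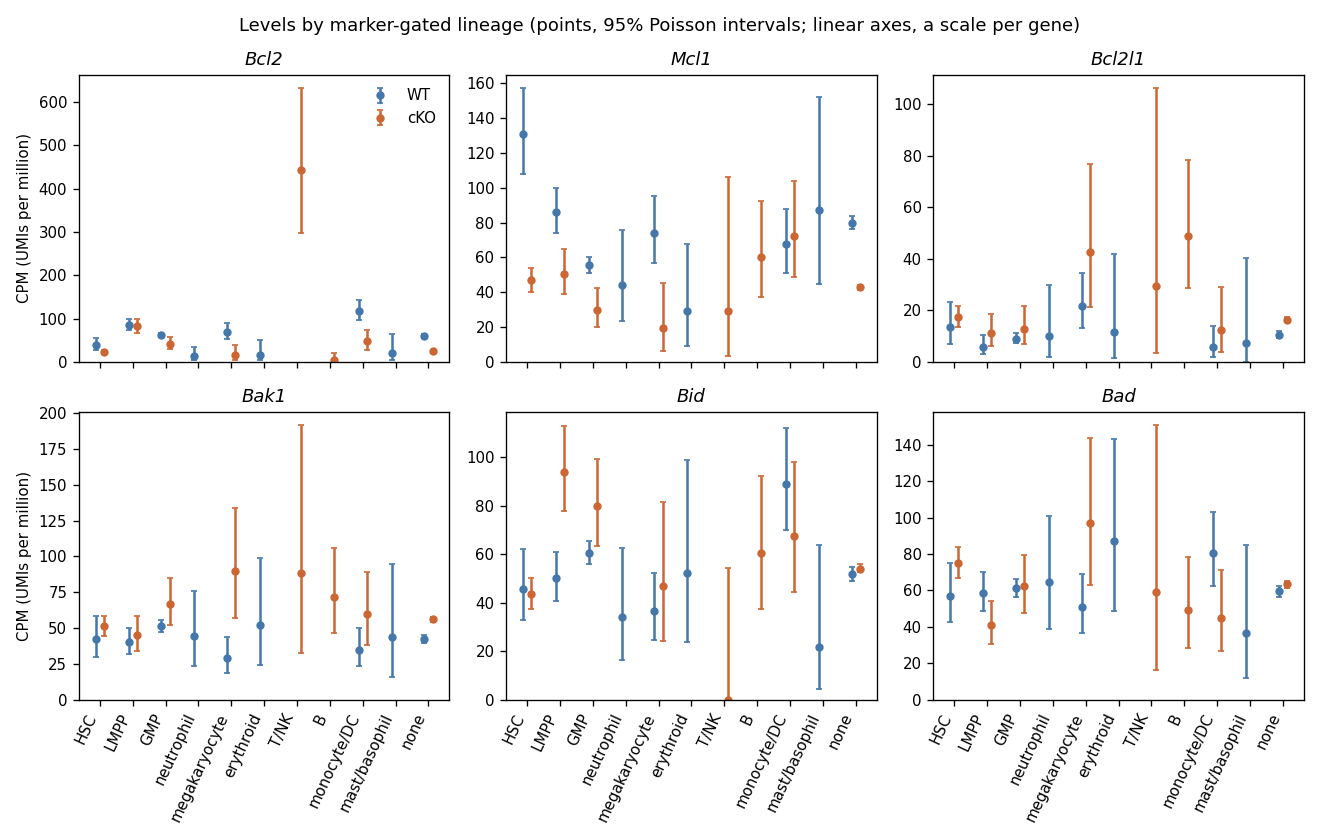
CPM of 6 genes in each marker gate (x axis) and library, with 95% Poisson intervals; axes are linear with a scale for each gene, and a gate with fewer than 20 cells in a library has no point for it. Bcl2 stands at 442 in cKO T/NK-gated cells and is level between libraries in LMPP, Mcl1 is highest in WT HSC-gated cells at 131, and Bid is 94.1 in cKO against 50.1 in WT in LMPP.

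The Bcl2a1 copies were counted with few UMIs, and where those lay differed between the libraries. Bcl2a1b had 26 UMIs in WT (0.626 CPM) and 163 in cKO (1.87 CPM), a log2 ratio of 1.56 (0.98 to 2.24). Bcl2a1d had 16 in WT (0.385 CPM) and 148 in cKO (1.70 CPM), a log2 ratio of 2.10 (1.39 to 2.98). Summed with the third copy, Bcl2a1a, so that it does not matter to which of the 3 a read was given, the level was 1.04 CPM in WT against 3.87 CPM in cKO (1.89, 1.44 to 2.39).

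Of the 163 Bcl2a1b UMIs in cKO, 54 were in monocyte/DC-gated cells, and those 54 came from 8 of 58 cells with up to 13 in 1 cell. The level there was 135 CPM (101 to 176), an interval that treats UMIs as independent and so is too narrow when 8 cells hold them all. The 133 WT cells of that gate held 0 UMIs, which allows up to 3.61 CPM at a floor of 3 counts over the gate. Bcl2a1d gave 1 UMI in WT and 25 in 9 cKO cells, 1.20 and 62.5 CPM, with a log2 interval of 3.09 to 11.06. The gate's markers summed to 9074 CPM in WT against 22903 CPM in cKO. Its WT cells had a median of 3 GMP markers detected and its cKO cells 1, so the gate may hold unlike cells in the libraries. The part of these in the difference was not tested. Without this gate the log2 ratio of Bcl2a1b over all cells was 0.96, under 2-fold. With the same mix of gated lineages in both libraries it was 2.13, and with the same mix of immediate early bins 2.91. The first mix gives more weight to the monocyte/DC-gated cKO cells, where 8 cells hold the 54 UMIs. The second gives more weight to cKO cells with 11 or more immediate early UMIs, 197 cells with 8 Bcl2a1b UMIs.

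In ungated cells the 3 copies summed had 23 UMIs in WT and 195 in cKO, 0.933 and 2.47 CPM, a log2 ratio of 1.38 (0.78 to 2.09). As assigned, Bcl2a1d had 6 UMIs in WT and 107 in 99 cKO cells, 0.243 and 1.35 CPM, a log2 ratio of 2.37 (1.31 to 3.95). Bcl2a1b had 17 and 79 UMIs, 0.689 and 0.999 CPM, with a log2 interval of -0.23 to 1.38. In GMP-gated cells Bcl2a1b had 3 UMIs in WT and 9 in cKO, at 0.296 and 8.88 CPM (4.76, 2.90 to 7.43), with 5 of the 9 in 1 of 4 cells. The 3 copies summed gave 0.889 and 13.8 CPM there (3.93, 2.65 to 5.35). All 4 cKO UMIs of Bcl2a1a in that gate were in 1 cell, so these intervals are too narrow as well. In the HSC gate WT held 0 UMIs of either copy and cKO 5 and 6, at 1.23 and 1.48 CPM. Both levels are under the 3.35 CPM that 0 counts allow in the WT gate, so no difference was detectable there at this depth. The 43 neutrophil-gated WT cells also held 0 UMIs of either copy.

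**Figure D3:**
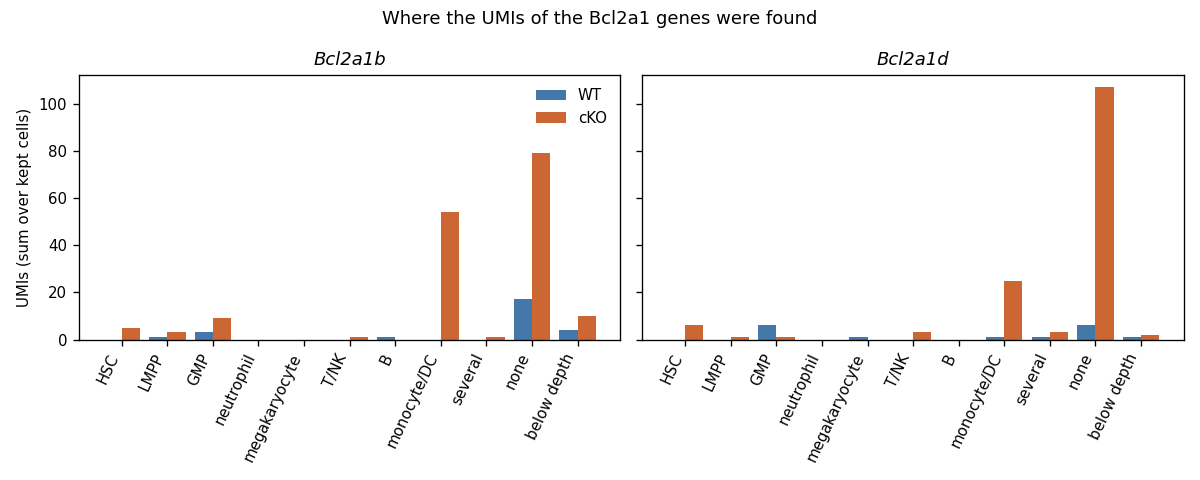
UMIs of Bcl2a1b (left) and Bcl2a1d (right) summed over the kept cells of each marker gate, with bars for WT and cKO; "several" are cells that met more than 1 gate and "below depth" cells under 2000 UMIs. In cKO 54 of 163 Bcl2a1b UMIs lie in the monocyte/DC gate and 107 of 148 Bcl2a1d UMIs in ungated cells.

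Immediate early genes, which respond within minutes to handling and signalling, differed strongly between the libraries, with 18 of 20 at least 2-fold lower in cKO and Jun at 1503 CPM in WT against 149 in cKO. The levels of the BCL2 family genes were therefore also read in cells grouped by their immediate early UMIs after thinning, in bins of 0, 1 to 2, 3 to 5, 6 to 10, and 11 or more UMIs. The bins held 126, 650, 1148, 1535 and 4483 WT cells and 910, 3290, 2916, 1064 and 197 cKO cells. The last bin has no upper end, so levels inside it are not matched.

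Mcl1 followed the bins in both libraries. In WT it was at 30.8, 38.7, 43.7, 59.6 and 105 CPM from the lowest to the highest bin, and in cKO at 38.8, 39.9, 44.4, 52.9 and 87.2 CPM. Within bins the log2 ratios were 0.31, 0.04, 0.02, -0.17 and -0.27, and every interval spanned 0. Given the same mix of bins in both libraries, the ratio over all cells was -0.14 in place of -0.79. In HSC-gated cells with 10 or fewer immediate early UMIs, 74 in WT and 531 in cKO, Mcl1 was at 99.5 and 45.7 CPM (-1.14, -1.70 to -0.49), without further matching inside that range. LMPP-gated cells of that kind, 146 and 140, held 55.3 and 49.1 CPM. GMP-gated cells of that kind, 792 and 62, held 40.1 and 29.9 CPM. Bcl2l11, at -0.42 over all cells, turned to 0.12 with the same mix of bins. Bcl2a1b was at -0.84 in the first bin, on 1 and 9 UMIs and with an interval that spanned 0, and at 3.45, 2.19 and 3.44 in the last 3, each with an interval above 0 and with 1, 6 and 14 UMIs in WT. The second bin had 0 UMIs in WT and 48 in cKO.

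Bcl2 did not follow the bins in WT, at 84.2, 57.6, 70.0, 68.3 and 57.4 CPM. In cKO it was at 22.3, 25.6, 26.1 and 29.9 CPM in the first 4 bins and 66.1 CPM in the last. The Bcl2 log2 ratio was -1.92 (-2.28 to -1.54), -1.17, -1.42 and -1.19 in the first 4 bins, each with an interval below 0, and 0.21 (-0.18 to 0.56) in the last. That last bin has 197 cKO cells, 116 of them ungated and 29 HSC-gated. With the same mix of bins the ratio over all cells was -0.97, just under 2-fold. Bcl2l1 was higher in cKO in every bin, by 0.52, 0.42, 0.81, 0.90 and 1.05 on the log2 scale, with an interval that spanned 0 in the first bin only.

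**Figure D4:**
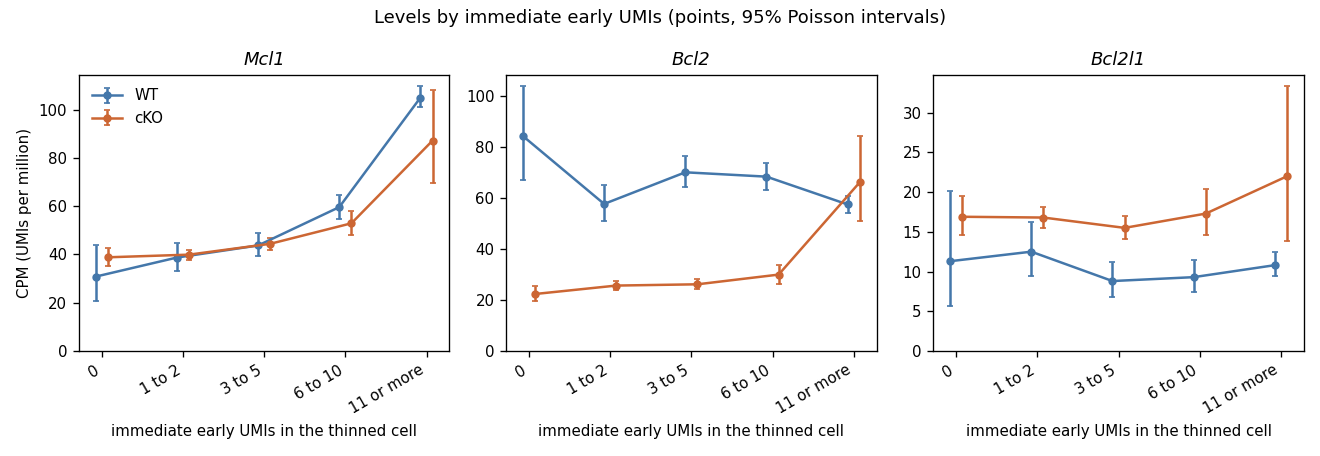
CPM of Mcl1, Bcl2 and Bcl2l1 against the number of immediate early UMIs in the thinned cell (x axis, 5 bins), with 95% Poisson intervals, for WT and cKO. The Mcl1 lines run together and climb to 105 in WT and 87.2 in cKO, the Bcl2 lines stay apart until the last bin, and Bcl2l1 lies higher in cKO throughout.

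By share of cells with a UMI after thinning, Bcl2 was found in 10.6% of WT cells (exact binomial interval 9.88 to 11.2%) and 4.52% of cKO cells (4.09 to 4.99%). Mcl1 was found in 15.9% (15.1 to 16.8%) and 8.74% (8.14 to 9.36%). Without thinning the Mcl1 shares were 30.5% and 35.3%, in the opposite order, and the cKO cells are the deeper ones. Bak1 was found in 8.26% and 10.2%, Bcl2l1 in 2.32% and 3.46%, Bid in 9.32% and 10.1%, Bad in 11.6% and 12.3%, and Bcl2l11 in 1.32% and 0.836%. The Bcl2a1 copies were each in under 0.4% of thinned cells in both libraries. As a gauge of free RNA, Bcl2 had a UMI in 0 of 43 thinned neutrophil-gated WT cells, a count that leaves room for 6.98% at a floor of 3 counts, and in 1 of 49 B-gated cKO cells (2.04%, 0.0517 to 10.9%), an interval that holds the cKO share of 4.52%. In the same 43 WT cells Mcl1, Bak1 and Bad were each found in 3 (6.98%, 1.46 to 19.1%), Bid in 2 (4.65%, 0.568 to 15.8%) and Bcl2l1 in 1 (2.33%), and the WT shares of these genes lay inside those intervals, so the gate gives no lower background for them.

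Cells with at least 3 G2/M genes detected were compared with cells that had none, within each library. The first kind numbered 2504 in WT and 2446 in cKO, and the second 3079 and 3415. Mcl1 was at 54.8 CPM in the G2/M cells and 98.4 CPM in the other cells of WT (log2 ratio -0.84, -0.97 to -0.72), and at 39.1 and 45.8 CPM in cKO (-0.23, -0.34 to -0.12). Bcl2 was level in WT, at 63.5 and 62.7 CPM, and lower in G2/M cells of cKO, at 22.0 and 29.6 CPM (-0.43, -0.58 to -0.28). Bcl2l1 was lower in G2/M cells of both libraries, at 8.47 against 12.7 CPM in WT and 14.4 against 18.3 CPM in cKO. Bak1 was level in both, with log2 ratios of 0.11 and -0.01 and intervals that spanned 0. The G2/M cells were deeper, with medians of 6244.5 and 3325 UMIs in WT and 11999 and 8594 in cKO.

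The rest of the death pathway was read from lists of genes, whose counts past 2-fold stand beside 2.88% of all genes higher and 5.25% lower in cKO. Of 17 other BCL2 family genes 7 reached 5 CPM, and 3 of those were at least 2-fold higher in cKO and 0 lower, with a median log2 ratio of 0.06. Those higher were Bok, a BAX-like effector, at 2.86 and 13.8 CPM (2.26), which reached 5 CPM in cKO only, Bbc3 (PUMA), a BH3-only target of p53, at 15.6 and 43.9 CPM (1.49), and Bax at 136 and 302 CPM (1.15). Bnip3 (-0.09), Bnip3l (-0.32), both mitophagy receptors, and Bcl2l12 (-0.37) lay lower in the list. Pmaip1, under 5 CPM in both libraries, was lower in cKO, at 3.66 and 2.36 CPM (-0.63, -0.94 to -0.32). The effectors Bax and Bak1 thus stood at 1.15 and 0.35 on the same log2 scale.

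Downstream of the mitochondrion, 0 of the 17 genes of the caspase cascade at 5 CPM or above passed 2-fold in either direction. Their median log2 ratio was -0.19, with 6 higher and 11 lower. At the upper end were Cycs, cytochrome c itself, at 546 and 679 CPM (0.31), Diablo, which is released with it (0.26), and the channel Vdac2 (0.25). At the lower end were the executioner Casp6 (-0.69) and the caspase inhibitors Birc3 (-0.74) and Xiap, the latter at 22.3 and 12.7 CPM (-0.81). In the death receptor arm that ends at BID, 0 of the 6 genes at 5 CPM or above passed 2-fold, with a median of -0.15. Tnfrsf1a (0.08), Casp8 (-0.09), Ripk1 (-0.12), Fadd (-0.18), Tradd (-0.43) and Cflar, the inhibitor of caspase-8, at 52.0 and 32.4 CPM (-0.68), were these genes. Of the others, which lay under that level, Fas was at -0.03, Fasl had 0 and 5 UMIs, and Tnfrsf10b, a p53 target, had 34 and 357 UMIs, 0.819 and 4.10 CPM (2.30, 1.81 to 2.88).

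Of 17 regulators of BCL2 family transcription and turnover, 2 were at least 2-fold higher and 0 lower, with a median of -0.03. These were Ddit3 (CHOP), at 22.7 and 96.6 CPM (2.09), and Atf4, at 67.7 and 216 CPM (1.67), the transcription factors of the integrated stress response. Trp53 was at 170 and 274 CPM (0.69). At the lower end were Stat5a (-0.36), Foxo3 (-0.41) and Stat5b, at 19.8 and 10.2 CPM (-0.95). STAT5 carries cytokine signals, and FOXO3 is a known activator of Bcl2l11. All 12 genes of the integrated stress response list were at least 2-fold higher in cKO, with a median log2 ratio of 3.67. In the LMPP gate, where Bcl2 was level, that list summed to 376 CPM in WT and 1339 in cKO, and in the HSC gate to 306 and 1061. The part of either state in the levels of the BCL2 family genes was not tested.

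**Figure D5:**
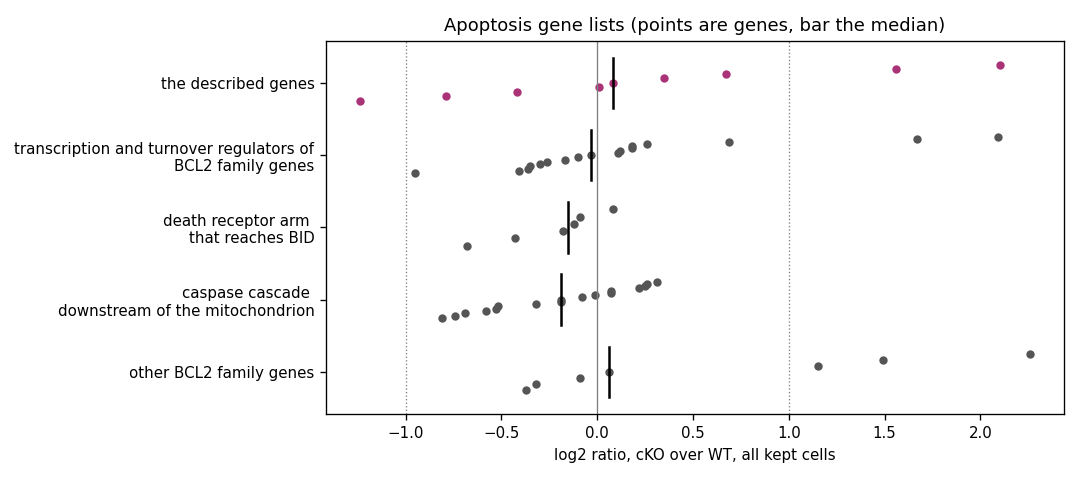
Log2 ratio of cKO over WT over all kept cells for the 9 described genes (top row) and for the genes of 4 lists that reached 5 CPM, with a bar at each median and dotted lines at 2-fold. The median lies at 0.08 for the described genes, which include the Bcl2a1 copies under 5 CPM. For the lists the medians lie between -0.19 and 0.06. Bok, Ddit3, Atf4, Bbc3 and Bax lie to the right.

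Genes with the most similar pattern were sought over the 7 combinations of gate and library with at least 100 cells, among 5426 genes. For Bcl2 they were Bin1 (Pearson r 0.946), Hnrnpl and Vav1, for Bcl2l1 Desi2 (0.988), Tmem5 and Ahctf1, and for Mcl1 Commd4 (0.980), Taf7 and Ldah. Bcl2l11, with 4 to 67 UMIs at a point, gave Bola1 (0.992), Kansl2 and Rars. Bcl2a1b had 0 to 5 UMIs at each point, too few for such a measure. With 7 points from 2 libraries of unlike depth, among so many genes, such values are a description of these points.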

How the data were processed

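Single-cell RNA was measured in LSK cells of 1 Trmt6 WT and 1 Trmt6 cKO library, grouped by genotype label. The authors made the deposited UMI counts per gene and barcode with Cell Ranger 6.0.0 on mm10; the labels name 3-prime kit v2 and the study's methods another version. Per library, cells with over 200 and under 4000 (WT) or 4500 (cKO) genes, under 10% (WT) or 5% (cKO) mitochondrial and under 5% hemoglobin UMIs were kept, and simulated-doublet neighbours were used to mark and drop 7.09% and 7.41% of barcodes. Counts were summed per library or gate, scaled to 1000000 UMIs (CPM), and compared as log2 ratios with 0.5 prior counts, exact Poisson intervals for levels and conditional binomial intervals for ratios. Levels are 3-prime UMI counts, not divided by length, and are not compared between genes. Gates required 3 markers (HSC, LMPP, megakaryocyte, erythroid, T/NK, mast/basophil), 4 (B, monocyte/DC) or 5 (GMP, neutrophil) in the cell thinned to 2000 UMIs; these numbers were set after marker detection was seen. The genes named are all 9 members, the 3 highest and 3 lowest log2 ratios of each pathway list, and the 3 most similar genes. Bax in the HSC gate, Pmaip1, Tnfrsf10b, Fas, Fasl, Bcl2a1a, Jun and Trmt6 were named outside that rule. The members and lists were chosen with earlier results of these data known. Calculations used Python 3.11.15, scipy 1.17.1, scikit-learn 1.9.0 and edgeR 4.0.16 (TMM factors only), and were tested on simulated data.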

Additional observations from a re-analysis of the deposited data

Results flagged for a closer look

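Bad was singled out because its ratio pointed in opposite directions between gates, with intervals on either side of 0: the log2 ratio of cKO over WT was 0.94 in megakaryocyte-gated and 0.09 in ungated cells, and -0.50 in LMPP-gated and -0.81 in monocyte/DC-gated cells. The difference between gates was not tested, the intervals cover counting error only, and the megakaryocyte gate has 22 cKO cells. The lower side is not firm: the LMPP value moved to -0.10 with gates on all UMIs and to -0.15 with thinning to 1000 UMIs, the upper ends of the LMPP and monocyte/DC intervals (-0.03 and -0.08) lie closer to 0 than the 0.10 by which scaling shifts every ratio, and the markers of the monocyte/DC gate summed to 9074 CPM in WT against 22903 CPM in cKO.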

How the results depend on the processing

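Of 14 alternatives for the values over all cells, Bcl2 was lower and Bcl2l1, Bcl2a1d and Bak1 higher in cKO in all 14. Scaling by TMM, median-of-ratios or totals without mitochondrial and ribosomal protein genes shifted every ratio by 0.10, 0.10 and 0.08, and the median of the 9 genes from 0.08 to 0.18, 0.19 and 0.17. Counted over all 9 genes with no minimum level, 1 was 2-fold lower and 2 higher. The number 2-fold lower went from 1 to 0 when each cell was scaled before averaging (Bcl2 at -0.89) and, in an alternative chosen after seeing the data, with the same mix of immediate early bins (Bcl2 at -0.97). The number 2-fold higher went from 2 to 1 in the lowest immediate early bin (126 WT and 910 cKO cells), where the median was -0.07, Mcl1 was at 0.31 and Bcl2a1b reversed to -0.84 on 1 and 9 UMIs (it was higher in the other 4 bins, and at 2.91 with the same mix of bins), and, also chosen after seeing the data, to 1 without the monocyte/DC gate. Dropping barcodes shared by the libraries changed no count. With the same mix of gated lineages Bcl2 was at -1.10, Mcl1 at -0.91 and Bcl2a1b at 2.13. Bcl2 in the HSC gate ran from -1.72 to -0.18 over 4 gate settings, and Mcl1 from -1.44 to -1.29. Bcl2l1 in the LMPP gate turned to -0.83 with thinning to 1000 UMIs and to -0.05 with gates on all UMIs. Without a minimum level, 9.71% of genes were 2-fold higher and 16.2% lower. No paired analysis was possible because each genotype has 1 library. Depth limits the gates: counts under 10 UMIs give intervals over 2-fold wide.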
